A study of Mus musculus with 4 samples.

Results

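AP-1 is a family of transcription factors that bind DNA as pairs of bZIP proteins, and 10 genes of the family were examined: Fos, Fosb, Fosl1, Fosl2, Jun, Junb, Jund, Batf, Batf2 and Batf3. They were taken by name, and every row of the authors' 2 deposited tables inside a gene or within 10000 bp of it was collected (GENCODE release M21, GRCm38). The 10 genes, of 21938 protein-coding genes, had 191 of 269406 listed positions and 3 of 3389 listed regions. Fosb, Fosl1, Junb and Jund had no row in either table.

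The study used whole-genome bisulfite sequencing, which reads methylation from the cytosines that bisulfite leaves unconverted. It compared 2 samples labelled WT with 2 labelled IRF8KO, which lack the transcription factor IRF8. All were untreated C57BL/6J mice 3 months of age, and the cells were microglia, the resident macrophages of the brain, sorted by FACS. The labels do not say how IRF8 was deleted or in which cells, and the growth protocol speaks of a brain of each genotype in the singular, so that whether replicates are separate animals is not known. The tables give the authors' comparison of the groups and no value per sample, so the spread between replicates behind a difference cannot be shown. The depth of reading is unknown too. The tables hold no expression values, so the cell type was not checked against its markers.

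In the headers the groups carry only a number, with no genotype beside it. They are called the first and the second group here, and a difference is the level in the first group minus the level in the second, on a scale from 0 to 1. The false discovery rate (FDR), standard error (SE) and levels are those of the authors' deposited table. The smallest posterior probability among listed positions is 0.95, their FDRs reach 1, and the FDR threshold of 0.05 is applied here.

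JUN proteins pair with each other or with FOS proteins, while FOS proteins need a JUN partner to bind DNA. BATF proteins also pair with JUN, and with IRF4 or IRF8 they bind composite DNA elements that neither protein binds well alone. Fos, Fosb, Jun and Junb are immediate early genes, transcribed within minutes of a stimulus, and AP-1 sites are common at macrophage enhancers. Low methylation of CpGs, cytosines followed by guanine, is a general feature of active enhancers and promoters.

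Fosl2 and Batf3 together held 164 of the 191 listed positions (85.9%) and all 3 regions. At Fosl2, first-intron positions were higher in the first group, where the called region has levels of 0.630 and 0.176 in the authors' deposited table. At Batf3, every listed position was lower in the first group, and all but a few lay downstream of the gene.

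Of the 10 genes, 6 had a listed position, against 64.1% of all protein-coding genes. For positions whose FDR was under 0.05 the count was 4 of the 10, against 30.8% of all protein-coding genes, and a region at 2 of the 10, against 9.19%. One of the 2 had a region higher in the first group and the other had regions lower in it, against 5.17% and 4.69% of all protein-coding genes. As shares of tested positions, 191 of about 13116 in the 10 windows were listed (1.46%), against 0.63% of all tested positions. For an FDR under 0.05 the count was 41 (0.313%), against 0.118% of all tested positions. Of these, 36 were higher in the first group, 0.274% of the positions tested in the windows against 0.0686% of all tested positions. The other 5 were lower, 0.0381% against 0.0494%. Fosl2 alone held 35 of the 36, and 34 of them lay within 2029 bp of its first intron. By gene the listed share was 7.45% at Batf3, 4.49% at Fosl2, 1.92% at Batf, and between 0% and 0.216% at the other 7. Neighbouring positions often have identical levels and are not independent, and with gaps of at most 500 bp the 191 positions formed 16 clusters. In each of the 16 clusters all positions had the same direction, higher in the first group in 6 and lower in 10. This is partly built in, since some clusters hold 1 position or only 1 pair of levels. The share over all clusters of the series was not computed.

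**Figure D1:**
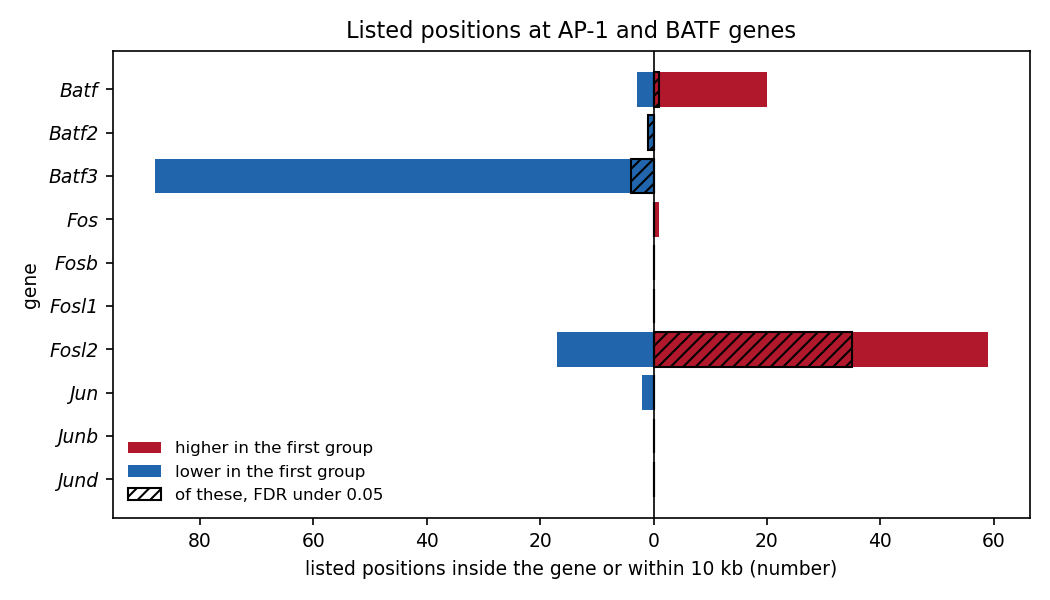
Number of listed positions inside each of the 10 genes or within 10 kb (x axis), higher in the first group to the right (red) and lower to the left (blue), with those of an FDR under 0.05 hatched. Batf3 has 88 positions, all lower, Fosl2 has 59 higher and 17 lower, and 4 genes have none.

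Of the FOS genes, Fosl2 encodes FRA-2, a FOS protein that lacks the strong activation domain of FOS. The gene (ENSMUSG00000029135.10) lies on chromosome 5 from 32135801 to 32157842 on the plus strand. It had 76 listed positions in 5 clusters, of which 59 in the first intron were higher and 17 upstream were lower in the first group. All 35 of its positions with an FDR under 0.05 were higher in the first group.

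The region listed at Fosl2 spans 1214 bp of the first intron, chr5:32138366-32139579, from 2565 to 3778 bp after the start of the transcript. In the authors' deposited table it has 42 cytosines, with the first group at 0.630 and the second at 0.176, a difference of 0.454. At its listed positions, the level in the authors' deposited table was from 0.508 to 0.700 for the first group and from 0.117 to 0.270 for the second. These are estimates per group, not per sample, and listed positions all have a posterior of at least 0.95. A gap between the levels and a difference above its SE are therefore tied to the listing. The site SEs were between 0.0702 and 0.155, the smallest site difference was 0.328, and 33 of the 42 positions had an FDR under 0.05. By the size of the authors' area score, a value per region that is used here only for ranking, it ranked 93 of 3389 regions and 42 among those higher in the first group. Its difference was larger in size than that of 73.8% of regions and its number of cytosines larger than that of 97.2%.

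Of the windows of up to 300 bp in that region, the first of those with the most listed positions is printed, and it holds the position of smallest FDR at the 10 genes. It is on GRCm38, plus strand, chr5:32138532-32138826, with the CpGs of the reference in capitals.
Fosl2 region core: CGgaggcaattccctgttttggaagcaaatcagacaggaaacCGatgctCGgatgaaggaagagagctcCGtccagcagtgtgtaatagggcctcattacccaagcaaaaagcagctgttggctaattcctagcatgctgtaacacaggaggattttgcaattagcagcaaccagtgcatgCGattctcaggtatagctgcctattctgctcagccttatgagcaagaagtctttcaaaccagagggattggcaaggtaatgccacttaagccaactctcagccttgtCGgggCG

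These 295 bp hold 7 reference CpGs and 16 listed positions, 14 of them on a reference CpG and 15 with an FDR under 0.05. Over the 16 positions the level in the authors' deposited table ranged from 0.613 to 0.657 for the first group and from 0.127 to 0.195 for the second. The smallest FDR at a reference CpG was at position 32138582, where the authors' deposited table gives 0.648 and 0.161, a difference of 0.487 with an SE of 0.0757 and an FDR of 1.14e-06. The smallest FDR of all was 2.12e-07 in the authors' deposited table, 1 bp further at 32138583, with the same levels and an SE of 0.0725. That position is not on a CpG of the reference. The largest difference, 0.541 with an SE of 0.101 and an FDR of 0.000272 in the authors' deposited table, was at 32139507, also not on a reference CpG.

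The differences at Fosl2 went beyond the called region. The cluster around it ran from 1963 to 3991 bp after the start, and 49 of the 50 positions tested there were listed. Farther into the intron, 6395 to 6553 bp after the start, 3 positions were higher in the first group, by 0.255 to 0.387 in the authors' deposited table, and 1 of them had an FDR under 0.05 (0.0240). A further 7 positions, 9014 to 9153 bp after the start, all had the same levels of 0.776 and 0.432 in the authors' deposited table, and the smallest FDR there was 0.407. In these outer clusters both groups had higher levels than inside the region.

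Upstream of Fosl2 the sign was the opposite. The authors' deposited table gives 8 positions 5933 to 6328 bp before the gene with levels from 0.601 to 0.644 for the first group and from 0.824 to 0.875 for the second. Another 9, 3162 to 3410 bp before it and inside the uncurated model Gm10463, had levels of 0.236 to 0.365 and 0.486 to 0.633 in the authors' deposited table. None of these 17 had an FDR under 0.05, the smallest being 0.0613 in the authors' deposited table at 32129679. Between the upstream and intronic positions lay 5125 bp with the start of the gene, where 684 tested positions were not listed.

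**Figure D2:**
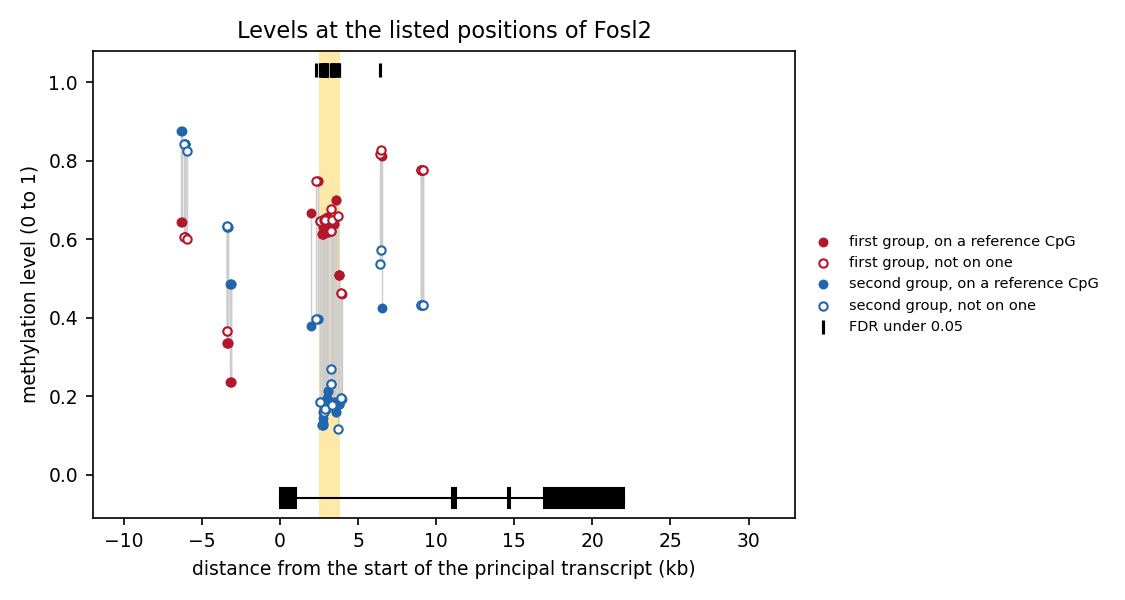
Deposited methylation level (y axis, 0 to 1) at each listed position of Fosl2 against the distance from the start of its principal transcript (x axis, kb), with the first group in red, the second in blue, a grey line joining the levels of a position, open symbols off the reference CpGs, ticks for an FDR under 0.05, the called region shaded, and exons as black boxes. The first group is the lower one upstream of the gene and the higher one in the first intron, where the second group is between 0.117 and 0.270 in the region.

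A motif bound by IRF factors, GAAA followed after any 2 bases by GAAA, was searched on both strands of the Fosl2 region because the groups differ in IRF8. It had 2 matches, both on the minus strand, so that the printed plus strand shows the reverse complement in capitals. The matches start at 32138369 and 32139497, 3 bp after the first position of the region and 10 bp before the position of largest difference, respectively.
Fosl2 first match, chr5:32138329-32138418: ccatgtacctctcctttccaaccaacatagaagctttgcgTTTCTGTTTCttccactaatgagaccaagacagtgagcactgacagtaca
Fosl2 second match, chr5:32139457-32139546: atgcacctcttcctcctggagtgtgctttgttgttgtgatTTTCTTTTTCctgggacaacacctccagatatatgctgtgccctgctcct

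Windows of the same 1214 bp centred on all 3389 regions held this motif in 18.4% of cases. The AP-1 motif TGANTCA, which reads the same on both strands, the related TGACGTCA and the ETS-IRF motif, GGAA followed after any 2 bases by GAAA, had no match in the Fosl2 region. In windows of that length they were present in 36.0%, 0.826% and 25.2% of the 3389. An AP-1-IRF composite, TGANTCA followed after any 4 bases by GAAA, also had no match and was present in 0.679% of these windows. On regions higher in the first group, as that of Fosl2 is, the ETS-IRF motif was in 12.6% of such windows. On regions lower in it the motif was in 39.5%. A match is a description of the letters and says nothing about binding.

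Fos, the founding member of its family, had 1 listed position, 8353 bp upstream of the gene on chromosome 12 (85465537). The authors' deposited table gives a level of 0.814 for the first group and 0.580 for the second, a difference of 0.234 with an SE of 0.0766 and an FDR of 0.604, which is over the threshold. Fosb on chromosome 7 (19302696 to 19310051) and Fosl1 on chromosome 19 (5447547 to 5455946) had no listed position. Fosb encodes FOSB and its shorter form, and Fosl1 encodes FRA-1. About 1387 positions were tested in the window of Fosb and 1336 in that of Fosl1. The nearest listed position lay 13081 bp from Fosb. From Fosl1, the nearest listed positions lay 40498 bp before and 161107 bp after the gene. No level can be given for an unlisted position, so that neither equality nor a small difference is shown at these genes.

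Of the JUN genes, Jun was the only one with a listed position. Its 2 positions, 95043380 and 95043381 on chromosome 4, are the 2 strands of 1 CpG, 5653 bp past the end of the gene. They lie inside the neighbouring gene Gm12703, which is not annotated as protein-coding. Both have levels of 0.589 and 0.937 in the authors' deposited table, a difference of -0.348 with SEs of 0.128 and 0.130 and an FDR of 1. Junb and Jund, whose proteins often counteract JUN in cell growth, lie on chromosome 8 from 84974484 to 84978718 and from 70698949 to 70700616. About 1508 and 1201 positions were tested in their windows, and none was listed. The nearest listed position was 17735 bp from Junb and 44057 bp from Jund.

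Of the BATF genes, Batf3 encodes a short bZIP protein needed for the development of a class of dendritic cells, in which it acts together with IRF8. The gene (ENSMUSG00000026630.9) lies on chromosome 1 from 191097847 to 191108945 on the plus strand. It had 88 listed positions, the most of the 10 genes, and all 88 were lower in the first group. Of these, 3 lay in the gene, in the UTR of the last exon. The rest formed a block that ended 9324 bp downstream of the gene, and 88 of the 255 tested positions from the first to the last were listed. Before the block, 1387 tested positions in a row were not listed, a stretch that includes the start of the gene and its introns.

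Along the block the levels of both groups were lowest in the same cluster. The first cluster, at the end of the gene, had levels of 0.506 to 0.537 for the first group and 0.829 to 0.840 for the second in the authors' deposited table. From 829 to 2175 bp downstream the authors' deposited table gives 0.183 to 0.380 and 0.493 to 0.719. From 3057 to 3376 bp downstream it gives 0.345 to 0.375 and 0.609 to 0.675, also in the authors' deposited table. The lowest levels lay from 6395 to 7207 bp downstream, where the authors' deposited table gives 0.143 to 0.177 and 0.446 to 0.518, and all 32 positions tested there were listed. In the last cluster, from 9093 to 9324 bp downstream, the levels in the authors' deposited table were 0.574 to 0.600 and 0.863 to 0.869. The differences of the 88 listed positions were between -0.397 and -0.256. No level is given for the other tested positions of the block, so that its whole course is not shown. Listed positions all have a posterior of at least 0.95, so that a gap between the groups at each is tied to the listing.

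Both regions at Batf3 lie in the cluster of lowest levels. The nearer one, 6524 bp downstream, spans 98 bp with 8 cytosines and has levels of 0.174 and 0.486 in the authors' deposited table, a difference of -0.311. The farther one, 6718 bp downstream, spans 248 bp with 8 cytosines, and the authors' deposited table gives 0.158 and 0.490, a difference of -0.332. They ranked 2057 and 1899 of 3389 by the size of the area score, and their differences were larger in size than those of 6.29% and 11.8% of regions. None of the 8 positions in the nearer region had an FDR under 0.05 (smallest 0.111 in the authors' deposited table), and 2 of the 8 in the farther region did. The sequences of both regions are printed whole, since they are the called differences at this gene (GRCm38, plus strand, reference CpGs in capitals).
Batf3 nearer region, chr1:191115469-191115566: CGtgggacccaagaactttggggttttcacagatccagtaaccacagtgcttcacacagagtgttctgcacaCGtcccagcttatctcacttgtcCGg
Batf3 farther region, chr1:191115663-191115910: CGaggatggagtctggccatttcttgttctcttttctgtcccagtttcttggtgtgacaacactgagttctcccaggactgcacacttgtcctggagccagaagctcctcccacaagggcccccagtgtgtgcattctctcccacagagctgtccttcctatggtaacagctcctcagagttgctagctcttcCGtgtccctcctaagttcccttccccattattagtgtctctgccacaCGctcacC

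Each holds 3 whole reference CpGs, and the farther one ends on the C of another. Neither holds a match to TGANTCA, TGACGTCA, the ETS-IRF motif, the IRF motif or the AP-1-IRF composite. In the order of this list, windows of 98 bp on all regions held them in 4.07%, 0.0885%, 3.84%, 2.04% and 0.118%. Windows of 248 bp held them in 10.6%, 0.177%, 9.86%, 4.49% and 0.207%. On regions higher in the first group the ETS-IRF motif was in 0.830% (98 bp) and 2.05% (248 bp) of windows. On regions lower in it, as both at Batf3 are, it was in 7.27% and 18.8%.

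With an FDR under 0.05 Batf3 had 4 of its 88 positions, against 18.7% of all listed positions, and 3 of the 4 are not on a reference CpG. The one on a reference CpG was 191115664 in the farther region, with levels of 0.143 and 0.488, a difference of -0.346, an SE of 0.0823 and an FDR of 0.0274 in the authors' deposited table. The smallest FDR at Batf3 was 0.00124 at 191115809, not on a reference CpG, where the authors' deposited table gives 0.148 and 0.518, a difference of -0.369 with an SE of 0.0735. The largest difference was -0.397 at 191110430, with levels of 0.257 and 0.654, an SE of 0.108 and an FDR of 0.133 in the authors' deposited table.

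**Figure D3:**
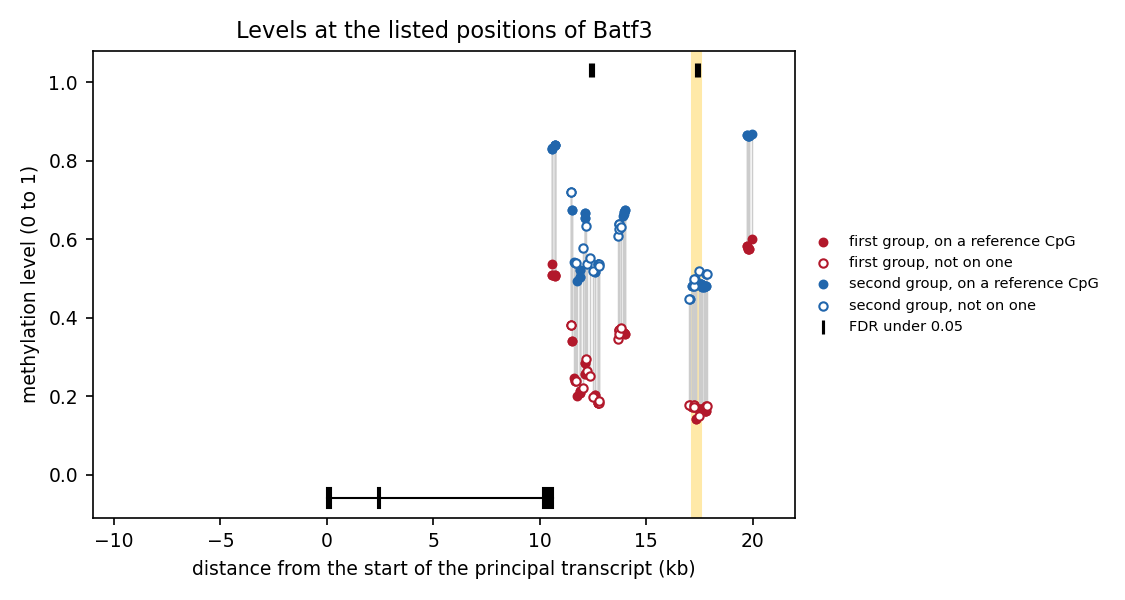
Deposited methylation level (y axis, 0 to 1) at each listed position of Batf3 against the distance from the start of its principal transcript (x axis, kb), with symbols, shading (both regions), ticks and exons as in the plot of Fosl2. All 88 positions lie at the end of the gene or downstream, the first group is lower at each, and both groups are lowest in the cluster that holds the regions.

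In the block downstream of Batf3, the ETS-IRF motif had 1 match, on the plus strand from 191110068. It is shown with the match in capitals because ETS factors are known partners of IRF8 on DNA. The IRF motif also had 1 match, on the plus strand, and TGANTCA had 4. TGACGTCA and the AP-1-IRF composite had none. Of windows as long as the block (9248 bp) on all regions, 69.6% held the ETS-IRF motif, 72.7% the IRF motif, 94.0% TGANTCA, 5.99% TGACGTCA and 4.16% the composite. For the ETS-IRF motif this was 63.1% on regions higher in the first group and 77.0% on those lower.
Batf3 downstream, chr1:191110028-191110117: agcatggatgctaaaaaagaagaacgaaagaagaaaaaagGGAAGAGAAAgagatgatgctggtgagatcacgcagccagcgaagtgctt

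Batf, which encodes a BATF protein known from T and B cell differentiation, had 23 listed positions in 3 clusters and no region. The gene (ENSMUSG00000034266.6) lies on chromosome 12 from 85686669 to 85709087 on the plus strand. In its second intron, 14155 to 14585 bp after the start, 18 of 21 tested positions were listed and all 18 were higher in the first group. Their levels in the authors' deposited table were 0.586 to 0.661 for the first group and 0.252 to 0.377 in the second. None had an FDR under 0.05, and the smallest, 0.630 in the authors' deposited table, was over the threshold. This is the largest cluster at Batf, and its core is printed for comparison with the Fosl2 intron (GRCm38, plus strand, reference CpGs in capitals).
Batf intron core, chr12:85700969-85701254: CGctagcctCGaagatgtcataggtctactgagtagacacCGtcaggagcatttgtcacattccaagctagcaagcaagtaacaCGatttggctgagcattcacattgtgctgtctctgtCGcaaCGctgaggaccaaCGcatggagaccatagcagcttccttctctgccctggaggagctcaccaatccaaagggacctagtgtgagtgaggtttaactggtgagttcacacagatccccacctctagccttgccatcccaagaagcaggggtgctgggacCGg

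The core of 286 bp holds 8 reference CpGs, against 7 in 295 bp at Fosl2. The levels of the first group were 0.586 to 0.661 at Batf and 0.613 to 0.657 at Fosl2 in the authors' deposited table. Those of the second group were 0.252 to 0.377 at Batf and 0.127 to 0.195 at Fosl2 in the authors' deposited table. The Batf intron cluster of 431 bp held no match to TGANTCA, TGACGTCA, the ETS-IRF motif, the IRF motif or the AP-1-IRF composite. In that order, windows of 431 bp on all regions held them in 16.8%, 0.295%, 14.1%, 7.94% and 0.384%.

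The only position of Batf with an FDR under 0.05 lay 8692 bp upstream, at 85677977, and is not on a reference CpG. The authors' deposited table gives it levels of 0.806 and 0.492, a difference of 0.313 with an SE of 0.0764 and an FDR of 0.0377. Downstream, 3834 to 3922 bp past the gene, 3 positions had levels of 0.455 and 0.871 in the authors' deposited table. Their difference of -0.416 was the largest in size at Batf, with SEs from 0.137 to 0.174 and a smallest FDR of 0.611 in the authors' deposited table.

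**Figure D4:**
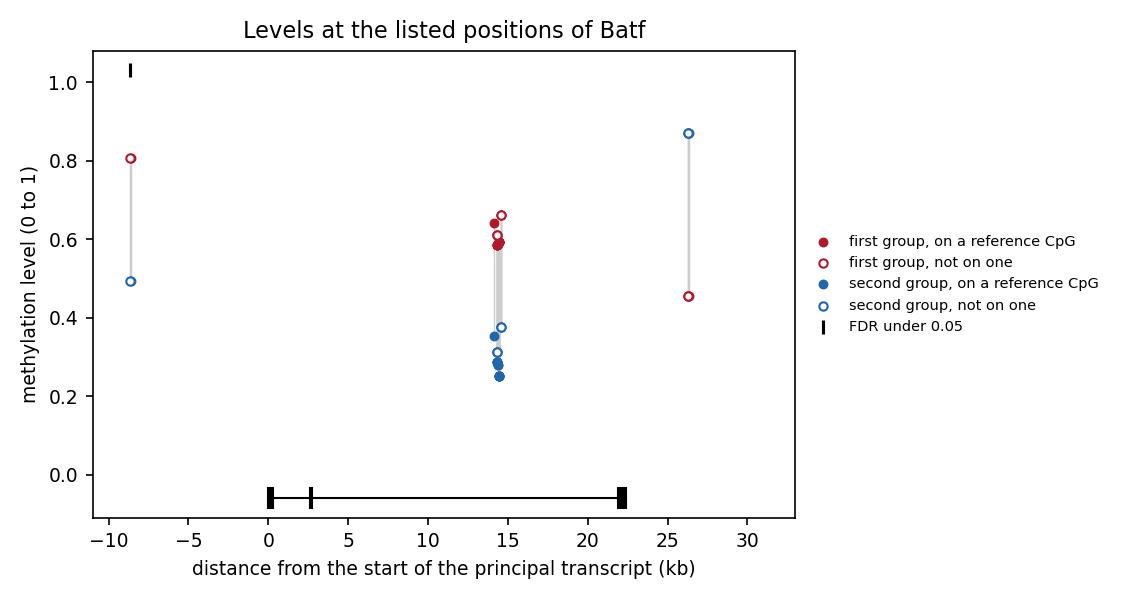
Deposited methylation level (y axis, 0 to 1) at each listed position of Batf against the distance from the start of its principal transcript (x axis, kb), with symbols, ticks and exons as in the plot of Fosl2. The first group is higher upstream and in the second intron and lower downstream, and 1 position, upstream, has an FDR under 0.05.

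Batf2, whose product is induced by interferon in macrophages, had 1 listed position, 3775 bp past the end of the gene on chromosome 19 (6176251), on a reference CpG. The authors' deposited table gives the first group 0.643 and the second 0.821. The difference of -0.178 was the smallest in size of all 191, and with the smallest SE of them, 0.0392, its FDR was 0.00876 in the authors' deposited table.

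Positions off the reference CpGs touch these results. Of the 191 listed positions 42 were not on a CpG of the reference, and of the 41 with an FDR under 0.05 there were 13. Of these 42 positions, 41 carried in both groups the dispersion values that very many sites share, against 3 of the 149 on a reference CpG. Their median SE was 0.0875 against 0.108 on reference CpGs. Over all 269406 listed positions, 210238 were on a reference CpG, with a median SE of 0.107, and the others had a median SE of 0.0882. What part this has in the FDRs was not tested. On reference CpGs, an FDR under 0.05 was left at Fosl2 (26 positions), Batf2 (1) and Batf3 (1), or 3 of 10 genes against 24.0% of all protein-coding genes, and at no position of Batf.

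**Figure D5:**
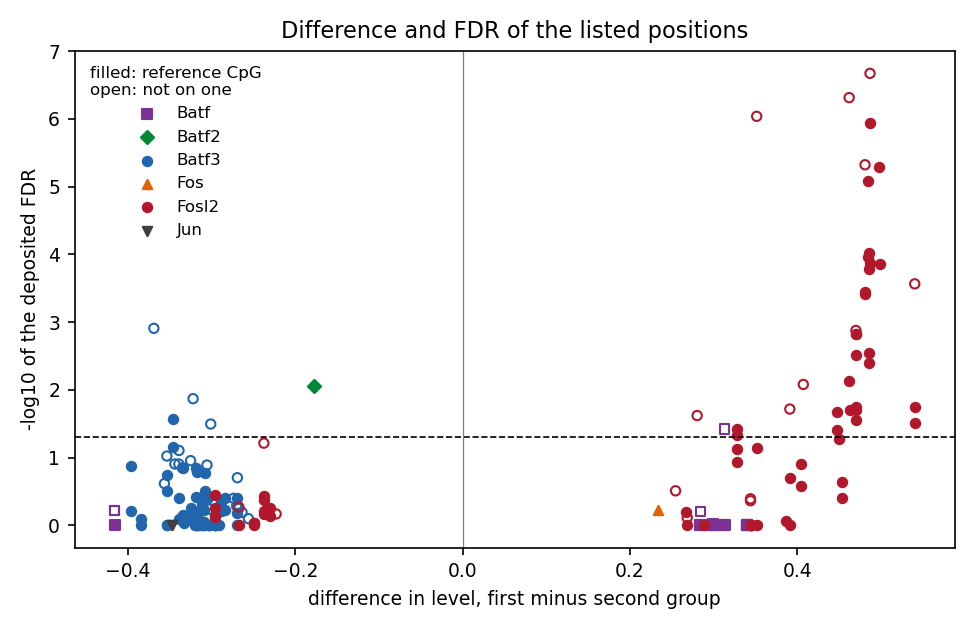
Difference in level, first minus second group (x axis), against the -log10 of the deposited FDR (y axis) for the 191 listed positions, by gene (symbol), filled on a reference CpG and open off it, with the FDR of 0.05 as a dashed line. Positions of Fosl2 in the intron lie at the upper right, 4 of 88 positions of Batf3 lie above the line, and 3 of these 4 are open.

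Within 1000 bp of the start of each principal transcript about 2574 positions were tested in total, from 67 at Batf2 to 416 at Fosl2, and 0 were listed at any of the 10 genes. Listed positions are rare there in general: 3.93% of all protein-coding genes had one within that distance, and 0.118% of the positions tested there were listed. The count of 0 of 10 is close to that background. The nearest listed position to a start was 1963 bp away, in Fosl2. At the other 5 genes with a listed position the nearest was between 8353 and 11812 bp from the start.

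Between 10000 and 50000 bp from the gene, 3 of the 10 genes had a region each, against 11.3% of all protein-coding genes. One of 1229 bp, chr1:191070395-191071623, 26224 bp upstream of Batf3, lies in the neighbouring gene Nsl1. With 59 cytosines and levels of 0.299 and 0.801 in the authors' deposited table (difference -0.502), it ranked 20 of 3389 by area score. One 29478 bp upstream of Jun, chr4:95081700-95082126, has levels of 0.696 and 0.284 in the authors' deposited table, a difference of 0.413 over 31 cytosines, and lies inside the antisense gene Junos. The third, 38812 bp downstream of Fos, chr12:85516085-85516318, has levels of 0.423 and 0.835 in the authors' deposited table, a difference of -0.412 over 6 cytosines. The nearest protein-coding genes of the last 2 are Jun and Fos themselves.

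Related genes were counted in the same way. The ATF, CREB and JDP genes are bZIP genes related to AP-1, and only some of their products pair with AP-1 proteins. Of these 12 genes, 6 had a position with an FDR under 0.05 and 2 had a region, against 30.8% and 9.19% of all protein-coding genes. Of their 29 such positions 26 were lower in the first group, 13 of them at Creb1 and 8 at Creb5. Over all positions with such an FDR, 58.1% were higher in the first group. The regions lie in Creb1 (difference -0.475 in the authors' deposited table) and Creb5 (-0.425).

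Of 13 MAF, NFE2 and BACH genes, 5 had a position with an FDR under 0.05 and 2 a region. The shares of all protein-coding genes were 30.8% and 9.19%. Of the 30 positions with such an FDR at the 13 genes, 23 were lower in the first group, 22 of them at Bach2. All 4 regions of Bach2, a repressor that competes for AP-1 sites, were lower in the first group, by -0.477 to -0.380 in the authors' deposited table. The region of Mafg, a small MAF gene, differed by 0.359 in the authors' deposited table and holds 1 whole reference CpG.

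Of 18 kinase genes upstream of AP-1, 5 had a position with an FDR under 0.05 and 4 a region. Among all protein-coding genes the shares were 30.8% and 9.19%. Of the 36 positions with such an FDR at the 18 genes, 28 were lower in the first group, 23 of them at Map3k7 and 5 at Mapk14. The regions lower in the first group lie in Map3k7, which encodes TAK1 (-0.457 and -0.434 in the authors' deposited table), and Mapk14, which encodes p38 alpha (-0.416). Regions higher in the first group lie in Mapk10, which encodes JNK3 (0.409 in the authors' deposited table), and Map3k5, which encodes ASK1 (0.358 and 0.328). The Map3k5 region with the difference of 0.328 holds no position with an FDR under 0.05. Map3k5 had 2 positions with such an FDR, and neither is on a reference CpG. Of the 2 IRF genes whose products bind with BATF, Irf8, the gene deleted in one group, had a region inside it (0.342 and 0.0667 in the authors' deposited table, a difference of 0.275) and 59 listed positions, none with an FDR under 0.05. A methylation level does not check the deletion. At the 10 AP-1 and BATF genes 36 of 41 positions with such an FDR were higher in the first group, and 35 of the 36 are those of Fosl2. Pooled over their windows, 0.637% of tested positions were listed at the ATF, CREB and JDP genes and 0.757% at the MAF, NFE2 and BACH genes. The pooled share was 0.592% at the kinase genes and 2.35% at the 2 IRF genes. It was 1.46% at the 10 AP-1 and BATF genes, against 0.63% of all tested positions. No test of a difference between these lists was made.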

How the data were processed

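DNA of 40000 sorted microglia per sample was extracted, and 50 ng was bisulfite-converted and amplified with 8 cycles of PCR, per the labels' protocols, then read as pairs of 75 bp. Bismark, Trim Galore and mm10 are named in the submitters' processing notes, without versions. Which test the authors ran, and how, is not given in the sources used here. Per the file headers, the authors deposited a table of sites (levels as a fraction per group, a difference and statistic as a score, its SE, dispersions, p-value, FDR and posterior) and a table of regions (levels as a fraction, difference and area score). Length and cytosine number per region were also deposited by the authors. Unused per-sample columns numbered 0.

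Python 3.11.15, pandas 2.3.3 and pysam 0.24.0 were used. Rows were assigned to a gene by distance, and positions were compared with the CpGs of GRCm38. Tested positions were read from the row numbers of the site table, which reach 42734461, and interpolated along reference CpGs. Transcripts are the APPRIS principal ones of GENCODE M21. No further test was run, and 2 against 2 samples allow an exact two-sided permutation p no smaller than 0.333. Assignment, clustering and motif search were checked on simulated data. All 10 genes, every region near them, and for each gene the positions of smallest FDR and largest difference were named by rule, as were related genes with a region. The genes and lists were chosen with earlier results of these data known. Alternatives were other distances, thresholds and subsets of rows.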

Additional observations from a re-analysis of the deposited data

How the results depend on the processing

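Of 53 alternatives, 33 left a count within 1.5 times the reported one or a region's difference within the median site SE. Counts have no sign to reverse. The 8 on the regions' differences were chosen after seeing the data and all left them within that SE. They average subsets of a region's own listed positions, all of the same direction, so that a reversed sign was not possible. At the Batf3 regions the site differences span less than that SE, so that a larger move was not possible either. No paired analysis was possible because only the 2 groups' levels are given. For the same reason a coverage minimum and leaving out each replicate were not run. Depth is unknown, so what it limits was not measured.

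The 191 listed positions became 80 inside the genes only, 398 within 50000 bp and 16 as clusters. The 41 with an FDR under 0.05 became 114 within 50000 bp, 25 with an FDR under 0.01, 15 under 0.001, 22 with their own dispersion and 6 as clusters. The 3 regions became 1 inside the genes, 1 within 5000 bp, 6 within 50000 bp and 1 with at least 10 cytosines. The 2 genes with a region became 1, 1, 4 and 1 under the same settings. The 4 genes with a position of FDR under 0.05 became 1 inside the genes, 7 within 50000 bp, 1 with an FDR under 0.001 and 2 with positions of their own dispersion. Each of these settings admits other rows by its construction. The region kept inside the genes, within 5000 bp and with at least 10 cytosines is that of Fosl2, and the Batf3 regions are those lost.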
